A study of Mus musculus with 17 samples.

Results

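The cytochrome P450 genes were taken as the protein-coding genes whose symbol is Cyp followed by a family number, a subfamily letter and a gene number, with Cyp24a1 and Cyp27b1 left out. The rule found 97 genes among the 53313 gene identifiers that all 17 count files shared, and used no measured value. Expression was measured by RNA-seq in cultured mouse tubular epithelial cells (PTEC), labelled as proximal tubular cells, and in whole kidneys. All came from wild-type mice, of a strain given as C57BL/6JRj by the study and as C57BL/6Rj by the labels. Non-senescent PTEC (n = 4) were harvested on day 6 of culture without irradiation. Senescent PTEC (n = 4) received 10 Gy of γ-radiation once confluent and were harvested on day 16, so irradiation and time in culture cannot be told apart. Both kinds of culture were grown from collagenase-digested kidneys. Kidneys came from untreated male mice aged 3, 12 or 24 months (n = 3 at each age), part of the right kidney was snap frozen, and the study kept only kidneys free of visible pathology. Replicates are separate libraries of a group, the labels do not say whether the cultures came from separate animals, and in that case p-values measure only the spread between these libraries.

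Cytochromes P450 are haem enzymes that insert an oxygen atom into lipids, steroids, vitamins and foreign chemicals, with electrons passed on by P450 oxidoreductase in the endoplasmic reticulum or by ferredoxin in mitochondria. In the kidney they are known for turning arachidonic acid into epoxides or, by omega-hydroxylation, into hydroxy acids that act on vessels and on salt transport, and several are expressed mainly in the proximal tubule. Some mouse genes of the family depend on sex hormones or on ligand-activated receptors such as the aryl hydrocarbon receptor (AhR), so their levels are known to vary between animals and culture conditions.

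Library depth was 26963442 to 32838856 counts in non-senescent PTEC, 29041073 to 35409144 in senescent PTEC, 37311247 to 49471409 at 3 months, 54097073 to 59718029 at 12 months and 62761670 to 66894790 at 24 months. The older kidneys were counted over 55401 gene identifiers, the 3-month kidneys over 54146 and the PTEC over 53715, so for the kidneys a difference from 3 months and a difference in annotation cannot be told apart. All 97 P450 genes were in every file, and none overlapped a gene present in only one of the kidney annotations. Markers of proximal tubule cells (12 genes) summed to 226 to 962 CPM (counts scaled to a common library size) in non-senescent PTEC, with 8 of the 12 at a mean of 1 CPM or more, to 248 to 392 CPM in senescent PTEC, with 6 of the 12, and to 45574 to 59639 CPM in kidneys, with all 12. The labelled cell type was thus backed in culture by only part of its markers, at a low summed level. In whole kidneys, and in cultures grown from them, fewer cells of a type and less RNA per cell cannot be told apart.

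P450 transcripts were abundant in kidney and sparse in culture. The 97 genes held 0.923% to 1.05% of all counts in the 3-month kidneys (median 0.976%), 1.2% to 1.38% at 12 months (median 1.37%) and 1.08% to 1.14% at 24 months (median 1.12%). The ranges of the 3 ages did not overlap, with 12 months highest and 3 months lowest. Non-senescent PTEC held 0.0238% to 0.0417% (median 0.0359%) and senescent PTEC 0.0495% to 0.0879% (median 0.0814%). A mean of 1 CPM or more was reached by 36 of the 97 genes at each age, by 22 in non-senescent PTEC and by 20 in senescent PTEC. At 100 CPM or more there were 11, 13 and 14 genes at 3, 12 and 24 months, and 1 gene, Cyp1b1, in each kind of PTEC. No count at all was seen in any library of the group for 26, 25 and 26 of the 97 at the 3 ages, for 42 in non-senescent PTEC and for 23 in senescent PTEC.

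The order of levels was read per length, as RPKM (reads per kilobase of exon, scaled to library size). Cyp4b1, a fatty acid and xenobiotic hydroxylase, was highest at 3 months, with 1817 ± 256 RPKM (SD, n = 3). It was followed by the arachidonic acid epoxygenase Cyp2j5 at 865 ± 91.7 RPKM, the ethanol-oxidising enzyme Cyp2e1 at 779.6 ± 58.3 RPKM and the steroid hydroxylase Cyp2a4 at 648 ± 60.4 RPKM. All 3-month kidneys had more Cyp4b1 than any had Cyp2j5, whereas the kidneys of Cyp2j5 and Cyp2e1 overlapped. The next level was held by the omega-hydroxylase Cyp4a10 (239 ± 67.2 RPKM), the oxysterol hydroxylase Cyp7b1 (217 ± 30.5 RPKM) and Cyp2j11 (213 ± 38 RPKM), which overlapped one another. Cyp4b1 also led at 12 months (2818 ± 369 RPKM) and at 24 months (1911 ± 175 RPKM), with Cyp2e1, Cyp2j5 and Cyp2a4 next at both ages, between 631 and 1066 RPKM. At 24 months Cyp2d12 stood at 141 ± 17.7 RPKM, close to Cyp4a31 at 157 RPKM and Cyp2j11 at 155 RPKM, while at 3 months it had 31.4 ± 3.24 RPKM.

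**Figure D1:**
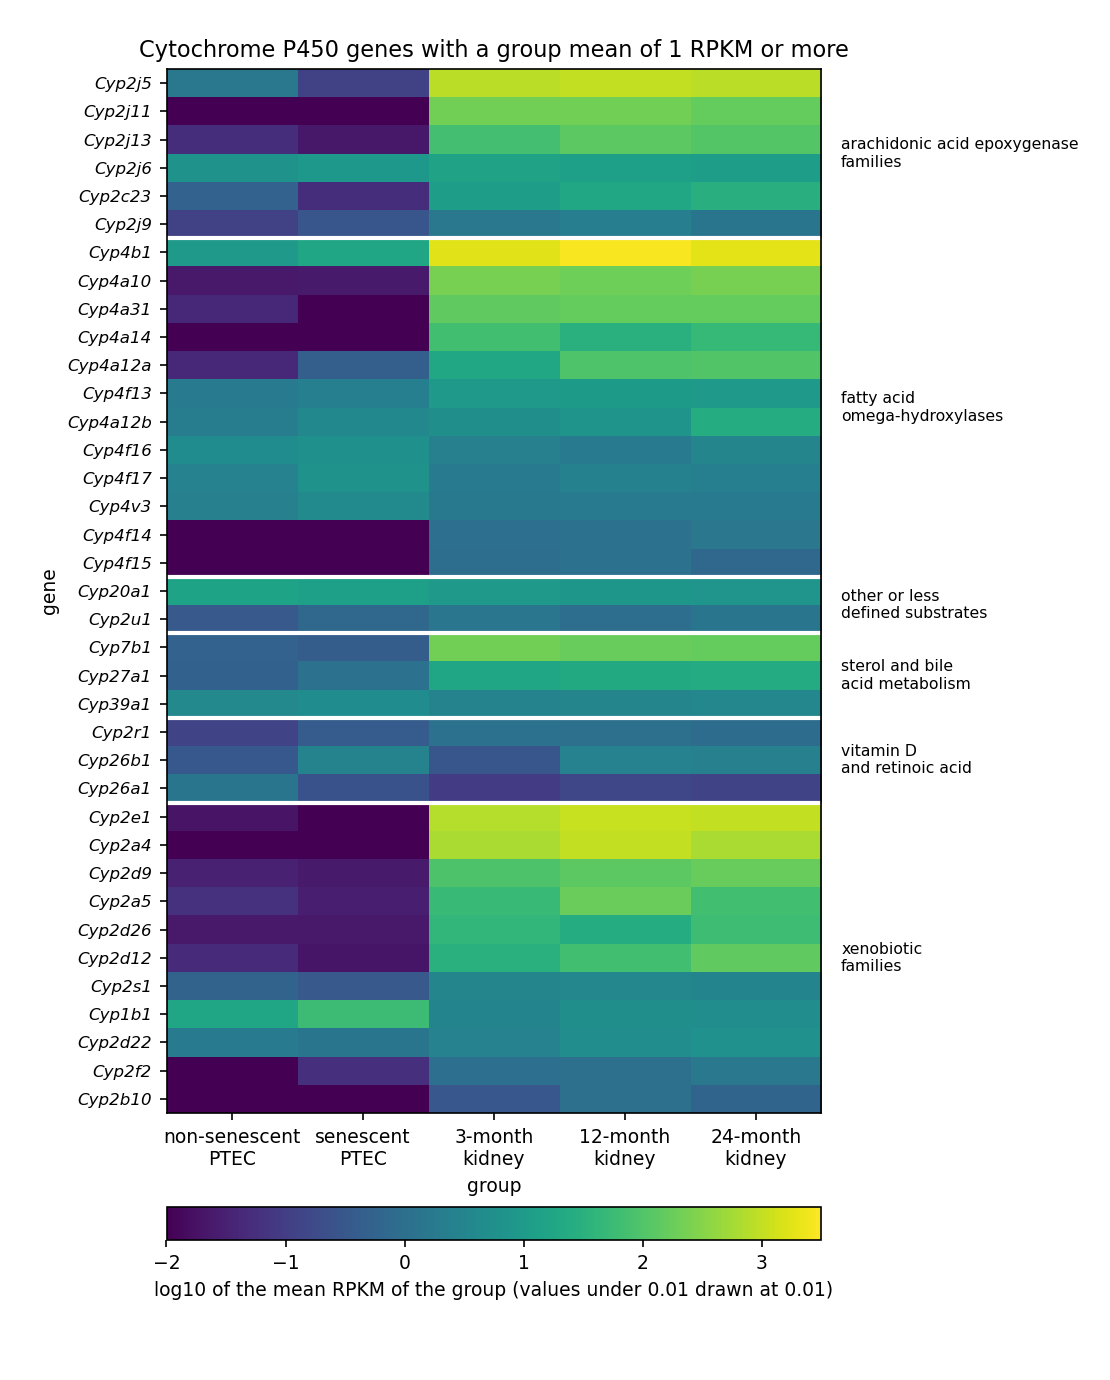
Mean level per length in each of the 5 groups, as log10 of RPKM in color, for the 37 P450 genes with a mean of 1 RPKM or more in any group, arranged by role. Values under 0.01 RPKM are drawn at 0.01. Cyp4b1, Cyp2j5, Cyp2e1 and Cyp2a4 lie at the top of the scale in the 3 kidney groups, while in PTEC only Cyp1b1, Cyp20a1 and, in senescent PTEC, Cyp4b1 exceed 10 RPKM.

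In non-senescent PTEC the order was another one. Cyp1b1, an AhR target that oxidises oestrogens and foreign chemicals, stood at 18.4 ± 14.3 RPKM (SD, n = 4) and Cyp20a1, an enzyme without a settled substrate, at 15.6 ± 2.17 RPKM, with overlapping cultures. Cyp4b1 followed at 8.94 ± 2.25 RPKM and the epoxygenase Cyp2j6 at 6.83 ± 1.82 RPKM. In senescent PTEC, Cyp1b1 stood at 60.4 ± 20.9 RPKM, Cyp4b1 at 16.9 ± 12.5 RPKM and Cyp20a1 at 12.9 ± 0.712 RPKM.

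Of the 30 P450 genes with 1 RPKM or more in each 3-month kidney, 18 were at least 10-fold lower per length in non-senescent PTEC, while 9.82% of all 10744 genes at that kidney level were. This is a description, since PTEC and kidneys differ in cell makeup, annotation and handling. The lower genes included the most abundant ones of the kidney: the ratio of mean RPKM was 203 for Cyp4b1, 542 for Cyp2j5 and 404 for Cyp7b1. Cyp2a4 and the omega-hydroxylase Cyp4a14 had 0 counts in every non-senescent culture, Cyp2j11 had 0 to 1 counts, Cyp4a10 had 1 to 4 counts and Cyp2e1 had 0 to 5 counts. The mean RPKM of other genes was higher in non-senescent PTEC than in 3-month kidneys, as for Cyp20a1 (15.6 against 9.61 RPKM), Cyp39a1, an oxysterol hydroxylase (3.92 against 2.94 RPKM), and Cyp4f16 (4.70 against 2.43 RPKM).

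Senescent and non-senescent PTEC were compared to see which P450 genes changed after irradiation and longer culture. A gene was called when its adjusted p-value was under 0.05 and its log2 fold change was larger than 0.5 in size in edgeR's quasi-likelihood test over all 15434 genes tested. Of the 27 P450 genes that passed the filter on low counts, 9 (33.3%) were up-regulated in senescent PTEC, while 20.1% of all genes tested were, and 6 (22.2%) were down-regulated, while 19.7% of all genes tested were. The median log2 fold change was 0.36 over the 27 and 0.00 over all genes tested. Cultures of the 2 groups did not overlap for 10 genes that were higher and 6 that were lower, against 22.1% and 19.9% of all genes tested. The up-regulated genes were Cyp1b1 among the xenobiotic families, Cyp2j9 among the epoxygenases, the omega-hydroxylases Cyp4a12a, Cyp4f17 and Cyp4v3, the fatty acid hydroxylase Cyp2u1, Cyp46a1, Cyp2r1 and Cyp26b1. The down-regulated genes were Cyp1a1, Cyp3a13, Cyp2c23, Cyp2j5, Cyp11a1 and Cyp26a1.

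**Figure D2:**
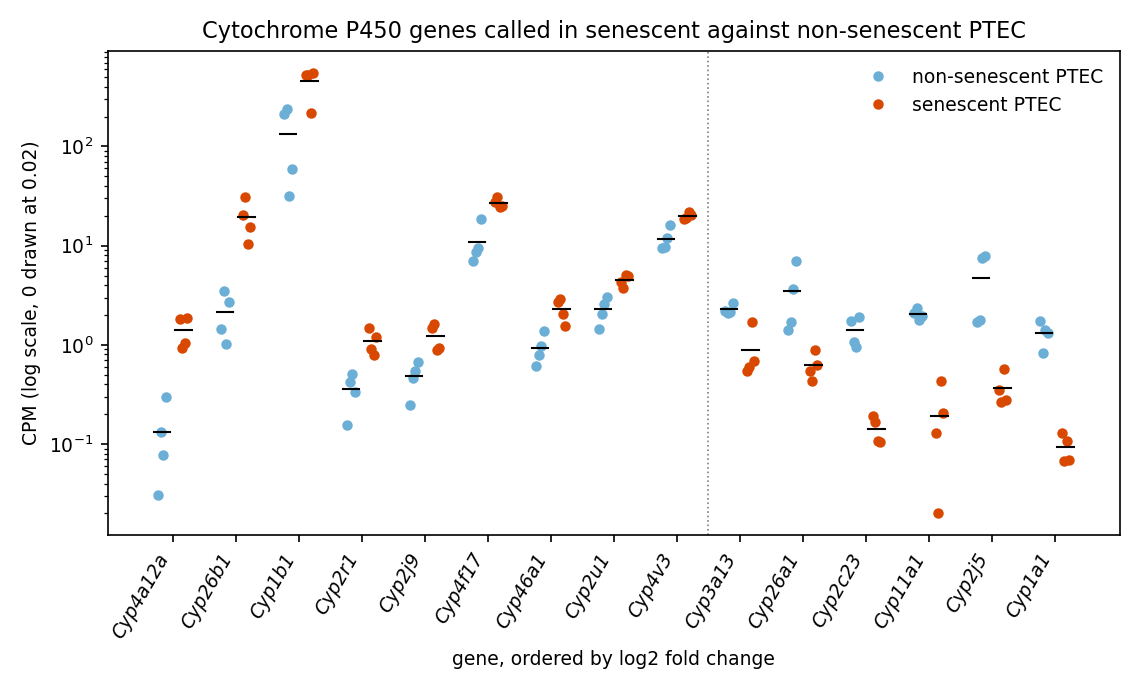
CPM on a log axis in each of the 8 PTEC cultures for the 15 P450 genes called between senescent and non-senescent PTEC, ordered by log2 fold change. Points are cultures, short lines are group means, 0 is drawn at 0.02 CPM, and the dotted line parts the 9 up-regulated from the 6 down-regulated genes. Cyp1b1 has the highest CPM of the 15 in both groups, and its groups overlap.

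Cyp1a1 and Cyp1b1 are the best known targets of the AhR and metabolise aromatic hydrocarbons. Cyp1a1 (ENSMUSG00000032315.6, chr9:57687928-57703824, plus strand) had 1.72, 0.821, 1.41 and 1.33 CPM in non-senescent PTEC 1 to 4 and 0.129, 0.067, 0.108 and 0.0691 CPM in senescent PTEC 1 to 4. Every senescent culture was below every non-senescent one, although senescent cultures held no more than 2 to 4 counts each. Cyp1a1 was down-regulated 13.5-fold (log2 fold change -3.75, SE 0.372, adjusted p = 6.44e-05, n = 4, edgeR's quasi-likelihood test). Cyp1b1 (chr17:79701537-79715061, minus strand) had 213, 236, 31.8 and 59.1 CPM in non-senescent PTEC and 519.9, 519.6, 215 and 553 CPM in senescent PTEC. Non-senescent cultures 3 and 4 were lower than 1 and 2, senescent culture 3 lay between the levels of non-senescent cultures 1 and 2, and the groups overlapped. Cyp1b1 was up-regulated 3.34-fold (log2 fold change 1.74, SE 0.593, adjusted p = 0.0375, n = 4, edgeR's quasi-likelihood test). The call was lost without senescent culture 1 (adjusted p = 0.0771), 2 (0.075) or 4 (0.0812), without non-senescent culture 4 (0.0896), without a filter on low counts (0.147) and in DESeq2 (0.0541). With the replicate number as a block it was called (log2 fold change 2.09, adjusted p = 0.00415), and it was higher in the senescent culture of all 4 same-numbered pairs. The 2 genes thus went in opposite directions, and their promoters are shown because both hold the AhR core motif. The letters GCGTG, searched on both strands, are in capitals in the bases before each RefSeq start site in GRCm38.p6, at chr9:57697363-57697612 (plus strand) for Cyp1a1 and chr17:79715062-79715311 (minus strand) for Cyp1b1, where the match is on the opposite strand. The Cyp1a1 window lies inside the gene as GENCODE draws it, which starts further upstream.
Cyp1a1: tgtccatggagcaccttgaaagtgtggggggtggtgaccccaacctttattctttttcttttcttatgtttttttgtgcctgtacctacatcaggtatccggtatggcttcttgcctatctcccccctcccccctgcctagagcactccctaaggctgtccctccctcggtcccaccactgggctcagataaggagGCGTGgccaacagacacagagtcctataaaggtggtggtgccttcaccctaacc
Cyp1b1: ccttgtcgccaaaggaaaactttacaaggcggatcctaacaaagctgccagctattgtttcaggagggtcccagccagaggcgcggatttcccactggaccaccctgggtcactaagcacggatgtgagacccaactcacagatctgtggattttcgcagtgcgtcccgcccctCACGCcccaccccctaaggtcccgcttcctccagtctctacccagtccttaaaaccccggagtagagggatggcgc
The same letters were found in 28.2% of all 32851 promoter windows of the table, so a match describes the sequence and marks no site.

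Genes known to follow the AhR, listed apart from the P450 family, were lower as well. This list was written with earlier results of these data known, so its counts are a description. Of the 6 in the list, 4 were tested and 4 were down-regulated in senescent PTEC, while 19.7% of all genes tested were, the median of their log2 fold changes being -2.34, against 0.00 over all genes tested. They were Tiparp (log2 fold change -0.92, adjusted p = 0.00443), Nqo1 (-3.12, 0.000296), Ugt1a6a (-1.55, 0.0111) and Gsta1 (-6.29, 7.09e-05). Ahr itself fell from 31.3 ± 9.77 to 15.3 ± 1.61 CPM (log2 fold change -1.03, adjusted p = 0.00609). Cyp1b1 moved against all of these, and AhR activity was not tested.

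Retinoic acid is broken down by the CYP26 enzymes, and both genes that passed the filter were called, in opposite directions, while Cyp26c1, with 1 to 3 counts in each senescent culture, was not tested. Cyp26a1 (chr19:37697798-37701536) had 1.41, 1.71, 3.69 and 7.05 CPM in non-senescent PTEC and 0.547, 0.435, 0.892 and 0.622 CPM in senescent PTEC. All senescent cultures were lower, and Cyp26a1 was down-regulated 5.47-fold (log2 fold change -2.45, SE 0.531, adjusted p = 0.00479). Cyp26b1 (chr6:84571414-84593908) had 1.44, 3.48, 1.02 and 2.69 CPM in non-senescent PTEC and 20.5, 31.0, 10.3 and 15.5 CPM in senescent PTEC. Again the groups did not overlap, and Cyp26b1 was up-regulated 8.92-fold (log2 fold change 3.16, SE 0.449, adjusted p = 0.0005). The promoter of Cyp26a1 is given because retinoic acid is known to act on it. It lies at chr19:37697558-37697797 (plus strand, GRCm38.p6, RefSeq), and the capitals mark 2 copies of AGTTCA in the same orientation with any 5 bases between, as in retinoic acid response elements. Both strands were searched, and the match is on the opposite strand.
Cyp26a1: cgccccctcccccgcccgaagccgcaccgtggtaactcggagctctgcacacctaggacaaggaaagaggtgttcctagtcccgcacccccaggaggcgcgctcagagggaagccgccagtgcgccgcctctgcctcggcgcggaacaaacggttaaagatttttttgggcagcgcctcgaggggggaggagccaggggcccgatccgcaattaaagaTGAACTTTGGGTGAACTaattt
Such a pair of copies was found in 7 of the 32851 windows (0.0213%). The shorter window of Cyp26b1 held no match.

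Cyp2r1 activates vitamin D in its first step. Its levels were 0.154, 0.427, 0.51 and 0.332 CPM in non-senescent PTEC and 1.48, 0.904, 0.783 and 1.21 CPM in senescent PTEC. Levels were low but did not overlap, and Cyp2r1 was up-regulated 3.08-fold (log2 fold change 1.62, SE 0.381, adjusted p = 0.00727).

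Among the 23 genes of the epoxygenase families, 4 were tested in PTEC, of which 1 was up-regulated and 2 were down-regulated, against 20.1% and 19.7% of all genes tested. Cyp2j5 (chr4:96628773-96664154), the second most abundant P450 of the 3-month kidney, had 1.69, 1.77, 7.49 and 7.9 CPM in non-senescent PTEC and 0.354, 0.268, 0.567 and 0.276 CPM in senescent PTEC. Non-senescent cultures 3 and 4 were several times above 1 and 2, and all lay above the senescent cultures. Cyp2j5 was down-regulated 12.5-fold (log2 fold change -3.65, SE 0.616, adjusted p = 0.0013). Cyp2c23, the main arachidonic acid epoxygenase of the mouse kidney, had 1.75, 1.08, 0.941 and 1.92 CPM against 0.193, 0.167, 0.108 and 0.104 CPM, or 3 to 6 counts in each senescent culture. With no overlap, it was down-regulated 9.76-fold (log2 fold change -3.29, SE 0.375, adjusted p = 0.000145). Cyp2j9 went the other way, from 0.246, 0.46, 0.549 and 0.664 CPM to 1.48, 1.64, 0.892 and 0.933 CPM, and was up-regulated 2.58-fold (log2 fold change 1.37, SE 0.36, adjusted p = 0.0126). Cyp2j6, the epoxygenase with the highest level per length in PTEC, had 24.7, 23.3, 35.1 and 40.8 CPM against 37.8, 39.9, 41.4 and 35.0 CPM and was not called (log2 fold change 0.31, adjusted p = 0.205).

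Of the 19 omega-hydroxylases of the CYP4 family, 8 were tested and 3 were up-regulated, while 20.1% of all genes tested were. Cyp4a12a (chr4:115299046-115332815), known in the mouse as an enzyme that hydroxylates arachidonic acid, had 0.0307, 0.131, 0.0784 and 0.295 CPM in non-senescent PTEC, or 1 to 8 counts, and 1.83, 0.938, 1.05 and 1.87 CPM in senescent PTEC. The groups were far apart at low levels, and Cyp4a12a was up-regulated 10.5-fold (log2 fold change 3.39, SE 0.526, adjusted p = 0.000799). Its near-identical relative Cyp4a12b, with 4.18, 3.48, 7.84 and 9.3 CPM against 15.7, 5.43, 10.2 and 14.8 CPM, overlapped between groups and was not called (log2 fold change 0.9, adjusted p = 0.0946), but was called with the replicate number as a block (log2 fold change 0.89, adjusted p = 0.0174). Of all 76-base stretches of Cyp4a12a, 40.61% were found in another gene, so reads of the pair may be split uncertainly, and the sum of both counts was not called (log2 fold change 1.03, adjusted p = 0.056). Cyp4f17 had 7.01, 8.6, 9.53 and 18.6 CPM against 27.6, 30.6, 24.6 and 25.3 CPM and was up-regulated 2.47-fold (log2 fold change 1.31, SE 0.283, adjusted p = 0.00483). Cyp4v3, known for the fatty acid metabolism of the retina, had 9.5, 9.62, 11.9 and 16 CPM against 18.5, 18.9, 21.7 and 20.6 CPM and was up-regulated 1.7-fold (log2 fold change 0.76, SE 0.189, adjusted p = 0.00953). Neither gene overlapped between groups. Cyp4b1, by contrast, had 32.1, 27.1, 17.1 and 25.1 CPM in non-senescent PTEC and 67.8, 90.4, 17.6 and 19.3 CPM in senescent PTEC, with senescent cultures 1 and 2 high and 3 and 4 within the non-senescent range (log2 fold change 0.94, adjusted p = 0.154, not called).

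Cyp2u1, a fatty acid hydroxylase set apart from the CYP4 family, had 1.44, 2.07, 2.59 and 3.03 CPM against 4.28, 3.72, 5.02 and 4.97 CPM. All senescent cultures were higher, and it was up-regulated 1.98-fold (log2 fold change 0.98, SE 0.263, adjusted p = 0.0137). Cyp20a1 had 52.8, 44.4, 42.8 and 38.8 CPM against 39.2, 39.3, 36.6 and 35.2 CPM and was not called (log2 fold change -0.25, adjusted p = 0.144). Cyp4f13 (5.75, 6.6, 13.5 and 15.7 against 11.5, 11.2, 16.6 and 13.7 CPM, log2 fold change 0.36, adjusted p = 0.4) and Cyp2s1 (1.75, 2.36, 3.96 and 5.91 against 2.51, 2.58, 2.27 and 1.21 CPM, -0.70, 0.187) overlapped between groups and were not called.

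Among genes of sterol metabolism, Cyp46a1, a cholesterol hydroxylase best known from neurons, had 0.615, 0.788, 0.98 and 1.37 CPM against 2.7, 2.91, 2.03 and 1.55 CPM. The lowest senescent culture lay just above the highest non-senescent one, and Cyp46a1 was up-regulated 2.46-fold (log2 fold change 1.30, SE 0.322, adjusted p = 0.00961). Cyp27a1, the mitochondrial sterol hydroxylase of bile acid synthesis, had 0.799, 0.525, 2.24 and 2.14 CPM against 3.02, 2.65, 3.94 and 3.25 CPM. All senescent cultures were higher, yet Cyp27a1 was not called (log2 fold change 1.18, adjusted p = 0.0506), while it was called with the replicate number as a block (log2 fold change 1.35, adjusted p = 0.00819). Cyp39a1 (log2 fold change 0.29, adjusted p = 0.0971) was not called.

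Cyp11a1, the side-chain cleavage enzyme that starts steroid synthesis from cholesterol, was the single steroid-synthesis gene of 6 to pass the filter. It had 2.09, 2.36, 1.76 and 1.96 CPM in non-senescent PTEC and 0.129, 0, 0.432 and 0.207 CPM in senescent PTEC. Non-senescent cultures lay close together and above all senescent ones, and Cyp11a1 was down-regulated 10.1-fold (log2 fold change -3.34, SE 0.59, adjusted p = 0.00165). Markers of adrenal cortex (5 genes) summed to 0.553 to 1.29 CPM in non-senescent and 1.05 to 1.55 CPM in senescent PTEC, and Mc2r, Nr5a1 and Hsd3b1 were at 0 in all non-senescent cultures. Cyp11a1 overlaps Gm17322 on the same strand, so reads of the overlap can belong to either gene.

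Cyp3a13, of the family that handles many drugs, had 2.18, 2.1, 2.16 and 2.66 CPM against 0.547, 0.603, 1.7 and 0.691 CPM. Senescent culture 3 was closest to the non-senescent ones, without overlap, and Cyp3a13 was down-regulated 2.54-fold (log2 fold change -1.34, SE 0.375, adjusted p = 0.0164). The call was lost without senescent culture 1 (log2 fold change -1.17, adjusted p = 0.0515) or 4 (-1.24, 0.0514). Apart from Cyp1b1 and Cyp3a13, the other 13 called genes stayed called whichever culture was left out.

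Partners of the P450 enzymes moved in both directions, and their counts stand beside 20.1% of all genes tested being up-regulated and 19.7% down-regulated. Of the 7 genes that supply electrons, 2 were down-regulated in senescent PTEC, Por, which encodes P450 oxidoreductase (log2 fold change -1.03, adjusted p = 0.00181), and Fdx1, the mitochondrial ferredoxin (-1.07, 0.00219), and 1 was up-regulated, Cyb5r3 (0.54, 0.0302). Of the 9 genes of haem synthesis and breakdown, Alad (-1.62, 0.00117) and Cpox (-0.59, 0.00292) were among 3 down-regulated genes and Uros (0.59, 0.00828) was up-regulated. Of the 11 transcriptional regulators tested of 13, 5 were down-regulated, the largest change being that of Hnf4a from 103 ± 22.3 to 13.1 ± 1.31 CPM (log2 fold change -2.98, adjusted p = 3.62e-06), with Nr1h4 (-2.24), Ppara (-1.71) and Ahr among the others, and 2 were up-regulated, Cebpa (0.74) among them. Of 8 tested targets of PPARα, 2 were up-regulated, Acot2 (1.02, 0.0066) and Pdk4 (1.07, 0.0321). Of the 8 tested epoxide hydrolases and eicosanoid enzymes, 1 was up-regulated, Alox5 (2.09, 0.000459). Clock output factors were up-regulated in 4 of 6, Tef (0.80), Nr1d1 (1.74), Nr1d2 (0.80) and Bhlhe41 (1.58). Of 3 tested androgen-responsive kidney genes, 2 were down-regulated, Kap (-3.19) and Odc1 (-0.92). Values in this paragraph are log2 fold changes, followed where given by the adjusted p of edgeR's quasi-likelihood test.

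Markers of several tubule segments and of other cells moved with the same comparison, to be read against the same shares of all genes tested. Of 7 tested proximal tubule markers, 4 were down-regulated in senescent PTEC. The 4 markers of the loop of Henle summed to 15.9 to 44.6 CPM in non-senescent and 1.17 to 3.59 CPM in senescent PTEC, and all 4 were down-regulated. The 6 markers of fibroblasts and pericytes summed to 9.99 to 67.1 CPM and 66.2 to 262 CPM, and 3 of the 5 tested were up-regulated. The 6 markers of distal tubule and collecting duct summed to 3.41 to 22.4 CPM and 0.402 to 1.3 CPM, with the 1 tested being lower and Aqp2 at 0 in senescent PTEC. Markers of leukocytes (7 genes, 35.7 to 75 CPM and 37.2 to 171 CPM, 1 of 5 lower), podocytes (4 genes, 53.7 to 129.7 and 61.7 to 142 CPM, 1 of 3 higher) and endothelium (5 genes, 59.8 to 181 and 62.4 to 232 CPM, 1 of 5 lower) overlapped between groups. Hepatocyte markers (6 genes) summed to 8.59 to 28.7 and 14.9 to 78.7 CPM, and adipocyte markers (4 genes) summed to at most 0.369 CPM and were too low to be tested. Of the 2 hepatocyte markers and the 1 adrenal marker tested, 0 were called by edgeR's quasi-likelihood test or DESeq2, and 0 had an unadjusted p under 0.05. The part of these cells in the P450 changes was not tested.

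Kidneys of 24, 12 and 3 months were compared in 1 fit to see which P450 genes changed with age. The 24- and 12-month kidneys were both set against the same 3-month kidneys, so these 2 comparisons share controls. At 24 against 3 months, 5 of the 49 P450 genes tested (10.2%) were up-regulated, while 1.89% of all 17067 genes tested were, and 0 were down-regulated, while 0.451% of all genes tested were. At an unadjusted p under 0.05 the test gave 15 higher and 4 lower, against 9.97% and 8.23% of all genes tested. DESeq2 called 9 higher, among them Cyp2d34, which the filter of the other test had left out, and 0 lower, against 2.42% and 1.03% of the 30029 genes it tested. It was run without that filter in all comparisons of ages and tested more P450 genes than the 49. Its counts are therefore not shares of the 49. The kidneys did not overlap for 18 genes that were higher and 4 that were lower, against 11.9% and 10.1% of all genes tested, and the median log2 fold change was 0.34 over the 49 and 0.00 over all genes tested. At 12 against 3 months, 5 of the 49 (10.2%) were up-regulated, while 1.22% of all genes tested were, and 0 were down-regulated, while 1.36% of all genes tested were. Here an unadjusted p under 0.05 gave 13 higher and 4 lower, against 8.95% and 7.58% of all genes tested, DESeq2 called 10 higher and 1 lower, against 1.77% and 1.92%, and 12 and 5 genes did not overlap, against 10.9% and 9.4% of all genes tested. The median log2 fold change was 0.21 over the 49 and 0.00 over all genes tested. At 24 against 12 months, 3 of the 49 (6.12%) were up-regulated, while 0.896% of all genes tested were, and 1 (2.04%) was down-regulated, while 0.434% of all genes tested were. An unadjusted p under 0.05 gave 7 higher and 5 lower, against 8.06% and 7.19% of all genes tested, and DESeq2 called 5 higher and 2 lower, against 1.64% and 0.952%. The kidneys of these ages did not overlap for 9 genes that were higher and 6 that were lower, against 13.5% and 12.2% of all genes tested, and the median log2 fold change was -0.03 over the 49. The 12- and 24-month kidneys with the same number deviated together, although kidneys 1 and 3 also did so across numbers (r = 0.27 and 0.191). With these ages alone and the number as a block 7 were higher and 3 were lower, while 7.77% and 5.41% of all genes tested in that fit were. Many of these calls were lost in fits that left out 1 kidney and so held fewer samples, while the log2 fold changes stayed of similar size. At 24 against 12 months these fits gave 1.18 to 1.38 for Cyp2d26, against 1.30 with all kidneys. For Cyp2a5 they gave -1.41 to -1.16, against -1.30. Cyp2c68 had 2.62 to 3.27 at 24 against 3 months, against 2.99. Without 3-month kidney 1 the up-regulated genes at 24 against 3 months numbered 1, without 3-month kidney 3 or 24-month kidney 1 or 3 they numbered 3, at 12 against 3 months they numbered 0 without kidney 1 or 3 of either age, and at 24 against 12 months both counts were 0 without any 1 of the 6 kidneys. With the 3- and 12-month kidneys alone, all 5 calls at 12 against 3 months were lost (adjusted p = 0.0683 to 0.14), and with the number as a block over all 9 kidneys all 4 calls at 24 against 12 months were (0.0958 to 0.164). The 8 genes called at any of these comparisons were Cyp2d12, Cyp2d22, Cyp2d26, Cyp2a4, Cyp2a5, Cyp4a12a, Cyp4a12b and Cyp2c68.

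**Figure D3:**
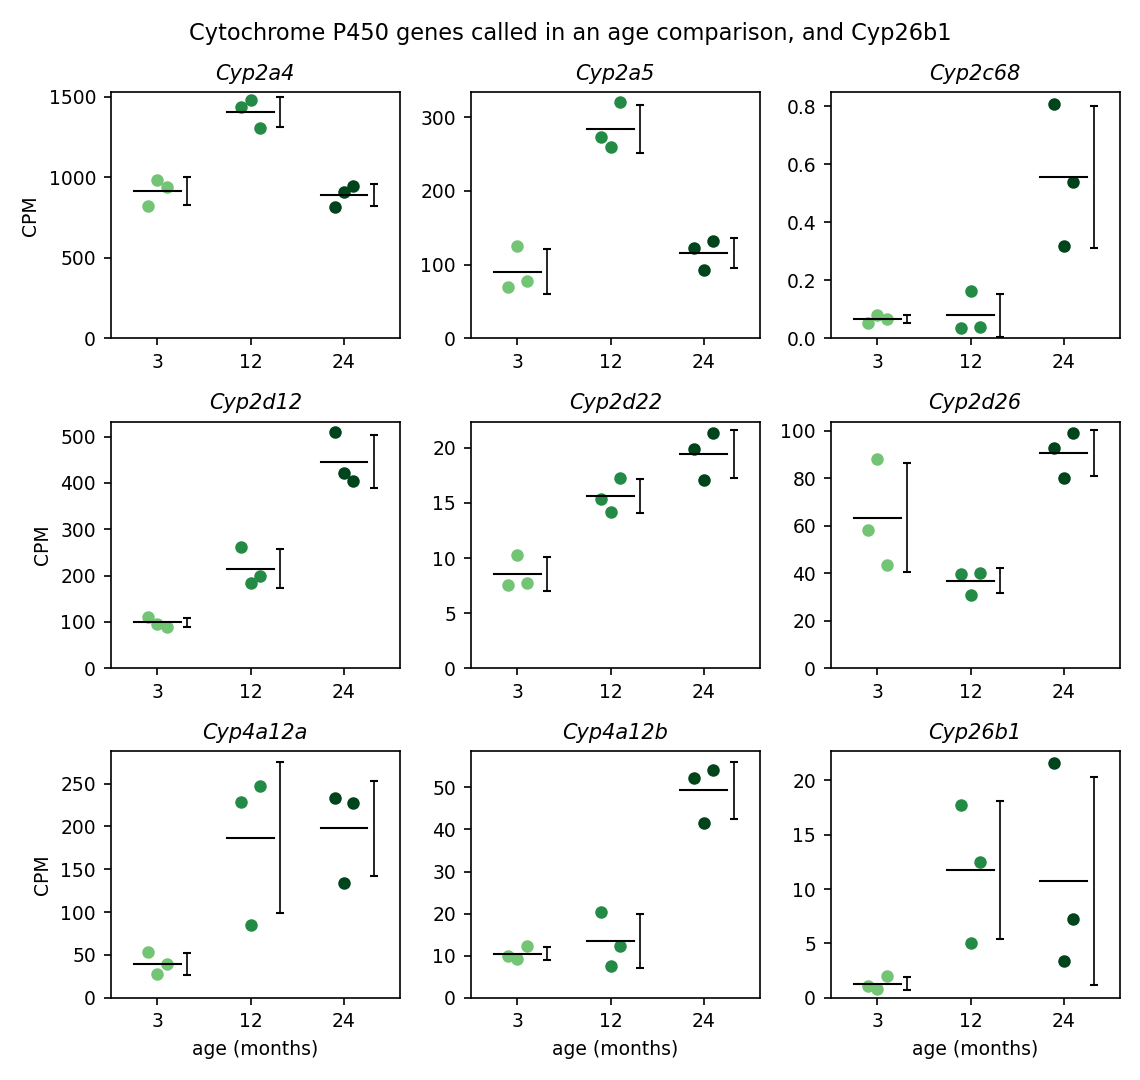
CPM in each kidney at 3, 12 and 24 months for the 8 P450 genes called in any comparison of ages and for Cyp26b1, each with its own axis. Points are kidneys, short lines are the means of each age and bars are the SD (n = 3). Cyp2d12 is higher at each later age, Cyp2a4 and Cyp2a5 peak at 12 months, and Cyp4a12b and Cyp2c68 are higher at 24 months alone.

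The CYP2D family is known for the metabolism of drugs and amines, and in the mouse several of its members differ between the sexes. Cyp2d12 (chr15:82555072-82560403) had 110.3, 96.2 and 89.7 CPM at 3 months, 262, 184 and 199 CPM at 12 months and 511, 421 and 405 CPM at 24 months. No kidney of one age overlapped another age. Cyp2d12 was up-regulated 4.51-fold at 24 against 3 months (log2 fold change 2.17, SE 0.186, adjusted p = 0.000694), and this call held whichever kidney was left out, with adjusted p up to 0.00741. It was also up-regulated 2.18-fold at 12 against 3 months (log2 fold change 1.12, SE 0.18, adjusted p = 0.0221) and 2.07-fold at 24 against 12 months (log2 fold change 1.05, SE 0.18, adjusted p = 0.0331). The call at 12 against 3 months was lost in 4 of the 6 fits that left out 1 kidney, 1 or 3 of either age (adjusted p = 0.0734 to 0.0851), and with these ages alone (0.0752), and the call at 24 against 12 months in all 6 (adjusted p = 0.0776 to 0.15) and with these ages alone (0.0551), but not with the number as a block in these ages (0.000773). Only 2.35% of the 76-base stretches of Cyp2d12 occur in another gene, and Gm27924 lies within it on the same strand.

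Cyp2d22 (chr15:82370527-82380260) had 7.54, 10.3 and 7.76 CPM at 3 months, 15.4, 14.2 and 17.3 CPM at 12 months and 19.9, 17.1 and 21.4 CPM at 24 months. The 3-month kidneys were below all others, and 12 and 24 months overlapped slightly. Cyp2d22 was up-regulated 2.28-fold at 24 against 3 months (log2 fold change 1.19, SE 0.17, adjusted p = 0.0117) and 1.83-fold at 12 against 3 months (log2 fold change 0.87, SE 0.169, adjusted p = 0.0368). The first call was lost without 3-month kidney 1 (adjusted p = 0.0802) and the second without any of 5 kidneys (adjusted p = 0.0634 to 0.169). Cyp2d26 (chr15:82790101-82794294) behaved differently, with 58.3, 88.2 and 43.3 CPM at 3 months, 39.7, 30.6 and 40.1 CPM at 12 months and 92.7, 80.1 and 99 CPM at 24 months. The 12-month kidneys were below the rest, and 3 and 24 months overlapped. Cyp2d26 was up-regulated 2.46-fold at 24 against 12 months (log2 fold change 1.30, SE 0.253, adjusted p = 0.0485), which was lost without any of the 6 kidneys (adjusted p = 0.115 to 0.166), and with the number as a block over all 9 kidneys (0.164), but had an adjusted p of 0.00026 with that block in these ages alone. Cyp2d9, a male-typical testosterone hydroxylase, had 173, 262 and 172 CPM at 3 months, 305, 251 and 285 CPM at 12 months and 328, 294 and 431 CPM at 24 months, and was not called (24 against 3 months, log2 fold change 0.80, adjusted p = 0.105, and 0.0371 in DESeq2). Cyp2d10 was low, with 0.105, 0.225 and 0.18 CPM, 0.0867, 0.28 and 0.212 CPM, and 0.412, 0.79 and 0.538 CPM. Its 24-month kidneys lay above all others, and at 24 against 12 months it was not called (log2 fold change 1.58, adjusted p = 0.149) but was with the number as a block in these ages alone (1.62, 0.0155).

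Cyp2a4 and Cyp2a5 lie in the same gene cluster and encode near-identical enzymes, a steroid hydroxylase and a coumarin hydroxylase. Their promoters are shown because both genes were highest at 12 months and their sequences are alike beyond the transcript. The windows are chr7:26306942-26307168 for Cyp2a4 and chr7:26835089-26835304 for Cyp2a5 (both plus strand, GRCm38.p6, RefSeq), 212 of the 216 aligned bases are identical (98.1%), and the capitals mark the 4 that differ.
Cyp2a4: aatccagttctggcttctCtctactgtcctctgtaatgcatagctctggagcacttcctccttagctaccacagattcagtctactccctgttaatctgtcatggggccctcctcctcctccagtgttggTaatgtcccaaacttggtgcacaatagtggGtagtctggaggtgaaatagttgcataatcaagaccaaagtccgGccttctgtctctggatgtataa
Cyp2a5: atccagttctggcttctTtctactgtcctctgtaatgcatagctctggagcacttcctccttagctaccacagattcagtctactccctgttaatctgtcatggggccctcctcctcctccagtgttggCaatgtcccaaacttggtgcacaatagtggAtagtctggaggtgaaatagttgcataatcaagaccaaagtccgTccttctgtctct
Cyp2a5 (chr7:26835305-26843548) had 69.2, 125 and 77.7 CPM at 3 months, 273, 259 and 321 CPM at 12 months and 122, 93.1 and 132 CPM at 24 months. The 12-month kidneys stood above all others, and 3 and 24 months overlapped. Cyp2a5 was up-regulated 3.13-fold at 12 against 3 months (log2 fold change 1.65, SE 0.247, adjusted p = 0.0176) and down-regulated 2.46-fold at 24 against 12 months (log2 fold change -1.30, SE 0.245, adjusted p = 0.0443), while 24 and 3 months were not called apart (log2 fold change 0.35, adjusted p = 0.431). Cyp2a4 (chr7:26307169-26315088) had 819, 983 and 939 CPM at 3 months, 1434, 1477 and 1303 CPM at 12 months and 818, 906 and 948 CPM at 24 months. Again 12 months stood apart above both other ages, and Cyp2a4 was up-regulated 1.54-fold at 12 against 3 months (log2 fold change 0.62, SE 0.135, adjusted p = 0.0494). At 24 against 12 months it was not called (log2 fold change -0.66, adjusted p = 0.0552), but was lower in DESeq2 (-0.65, 0.00021) and with the number as a block in these ages alone (-0.66, 0.00823). Of the 76-base stretches of Cyp2a4, 20.51% also occur in Cyp2a5. With the counts of both summed, the sum was up-regulated at 12 against 3 months (log2 fold change 0.75, adjusted p = 0.0293) and down-regulated at 24 against 12 months (-0.75, 0.0383). Leaving out 1 kidney took away the call of Cyp2a5 at 12 against 3 months in 4 of 6 fits (adjusted p = 0.0627 to 0.0851), that of Cyp2a4 in 5 of 6 (0.0922 to 0.225) and that of Cyp2a5 at 24 against 12 months in all 6 (0.093 to 0.162), while with the number as a block in these ages alone the latter had an adjusted p of 0.000408.

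Among the omega-hydroxylases, 15 of 19 were tested in kidneys and the near-identical pair Cyp4a12a and Cyp4a12b was up-regulated at 24 against 3 months, where 1.89% of all genes tested were. Of the 15, 1 was up-regulated at 12 against 3 months and 1 at 24 against 12 months, where 1.22% and 0.896% of all genes tested were. Cyp4a12a had 53.2, 27.4 and 39.1 CPM at 3 months, 228, 85.4 and 247 CPM at 12 months and 233, 134 and 227 CPM at 24 months. Kidney 2 was the lowest at each age, and the 3-month kidneys lay below all others. Cyp4a12a was up-regulated 4.96-fold at 24 against 3 months (log2 fold change 2.31, SE 0.429, adjusted p = 0.0288) and 4.68-fold at 12 against 3 months (log2 fold change 2.23, SE 0.427, adjusted p = 0.0366). These calls were lost in 4 (adjusted p = 0.0875 to 0.101) and in 5 (0.0547 to 0.115) of 6 fits that left out 1 kidney.

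Cyp4a12b (chr4:115411624-115439034) had 9.9, 9.32 and 12.2 CPM at 3 months, 20.4, 7.68 and 12.4 CPM at 12 months and 52.3, 41.6 and 54.1 CPM at 24 months. The 24-month kidneys were above all others, and 3 and 12 months overlapped. Cyp4a12b was up-regulated 4.71-fold at 24 against 3 months (log2 fold change 2.24, SE 0.322, adjusted p = 0.0121) and 3.66-fold at 24 against 12 months (log2 fold change 1.87, SE 0.317, adjusted p = 0.033), and was not called at 12 against 3 months (log2 fold change 0.37, adjusted p = 0.662). The first call was lost without 3-month kidney 1 (adjusted p = 0.0823) and the second without any of the 6 kidneys (0.0591 to 0.145) and with these ages alone (0.0588), but not with the number as a block in these ages (log2 fold change 1.97, adjusted p = 0.0018). The summed counts of the pair were up-regulated at 24 against 3 months (log2 fold change 2.30, adjusted p = 0.0239) and at 12 against 3 months (1.99, 0.0396), and not called at 24 against 12 months (0.30, 0.716).

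The other abundant omega-hydroxylases were not called between ages by edgeR's quasi-likelihood test over all 9 kidneys. Cyp4b1 had 3466, 3730 and 2789.6 CPM at 3 months, 5424, 4314 and 5569 CPM at 12 months and 3625, 3116 and 3771 CPM at 24 months. The 12-month kidneys were above all others (12 against 3 months, log2 fold change 0.62, adjusted p = 0.0918, and 0.036 in DESeq2), and 3 and 24 months overlapped (log2 fold change 0.07). With the 12- and 24-month kidneys alone and the number as a block, Cyp4b1 was lower at 24 months (log2 fold change -0.54, adjusted p = 0.0142) and Cyp4f16 was higher (0.67, 0.0151). DESeq2 also called Cyp4f16 higher at 24 against 12 months (0.67, 0.00224) and Cyp4f17 higher at 12 against 3 months (0.53, 0.0403). Cyp4a14, a PPARα target, had 30.6, 36 and 360.5 CPM at 3 months, 129, 38.5 and 24.1 CPM at 12 months and 121, 131 and 60.7 CPM at 24 months, so 3-month kidney 3 stood far above the other kidneys of its age and above all older ones (24 against 3 months, log2 fold change -0.45, SE 0.955, adjusted p = 0.788). Cyp4a10, also a PPARα target, had 295, 408 and 522 CPM at 3 months, 472, 242 and 275 CPM at 12 months and 396, 386 and 426 CPM at 24 months, with all ages overlapping. Cyp4a31 had 254, 379 and 249.6 CPM, 416, 220.2 and 334 CPM, and 339, 244 and 375 CPM at the 3 ages, also overlapping. Cyp4f13 overlapped as well, with 30.3, 40.3 and 25.1 CPM, 38.7, 29.7 and 39.1 CPM, and 34.8, 26.5 and 37.1 CPM (24 against 3 months, log2 fold change 0.04, adjusted p = 0.917).

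Of the epoxygenase families, 10 of 23 were tested in kidneys and 1 was called, up-regulated at 24 against 3 months, where 1.89% of all genes tested were. Cyp2c68 had 0.0525, 0.0819 and 0.0675 CPM at 3 months, 0.0347, 0.164 and 0.0386 CPM at 12 months and 0.809, 0.319 and 0.538 CPM at 24 months. This is 2 to 4 counts a kidney at 3 months and 21 to 53 at 24 months, with 24 months above all others. Cyp2c68 was up-regulated 7.92-fold at 24 against 3 months (log2 fold change 2.99, SE 0.631, adjusted p = 0.0476), a call lost without any of the 6 kidneys (adjusted p = 0.0582 to 0.215), and 28.08% of its 76-base stretches occur in other genes. Cyp2j5, the most abundant epoxygenase, had 1605, 1844 and 1489 CPM at 3 months, 1902, 1733 and 2030.1 CPM at 12 months and 1596, 1673 and 1614 CPM at 24 months, and was not called (24 against 3 months, log2 fold change -0.02). Its 24-month kidneys lay below the 12-month ones, and the 3-month kidneys overlapped both. Cyp2c23 had 17.9, 31.4 and 11.9 CPM, 42.2, 22.8 and 39.3 CPM, and 56.3, 38.6 and 60.8 CPM. Its 24-month kidneys were above the 3-month ones, yet it was not called (log2 fold change 1.35, adjusted p = 0.11, and 0.0212 in DESeq2). At 24 against 12 months, with these ages alone and the number as a block, Cyp2c23 (log2 fold change 0.60, adjusted p = 0.00844) and Cyp2c68 (2.71, 0.0201) were higher. Cyp2j13 had 304, 302 and 229 CPM, 571, 324 and 578 CPM, and 429, 361 and 429 CPM, with 12-month kidney 2 near the 3-month level (12 against 3 months, log2 fold change 0.82, adjusted p = 0.113, and 0.0481 in DESeq2). Cyp2j11 leaned down, with 298, 298 and 397 CPM, 285, 389 and 299.9 CPM, and 216, 276 and 231 CPM. Its 24-month kidneys lay below all others, without a call (24 against 3 months, log2 fold change -0.46, adjusted p = 0.244). Cyp2j6 was also lower in every 24-month than in every 3-month kidney and was not called (log2 fold change -0.29, adjusted p = 0.307).

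**Figure D4:**
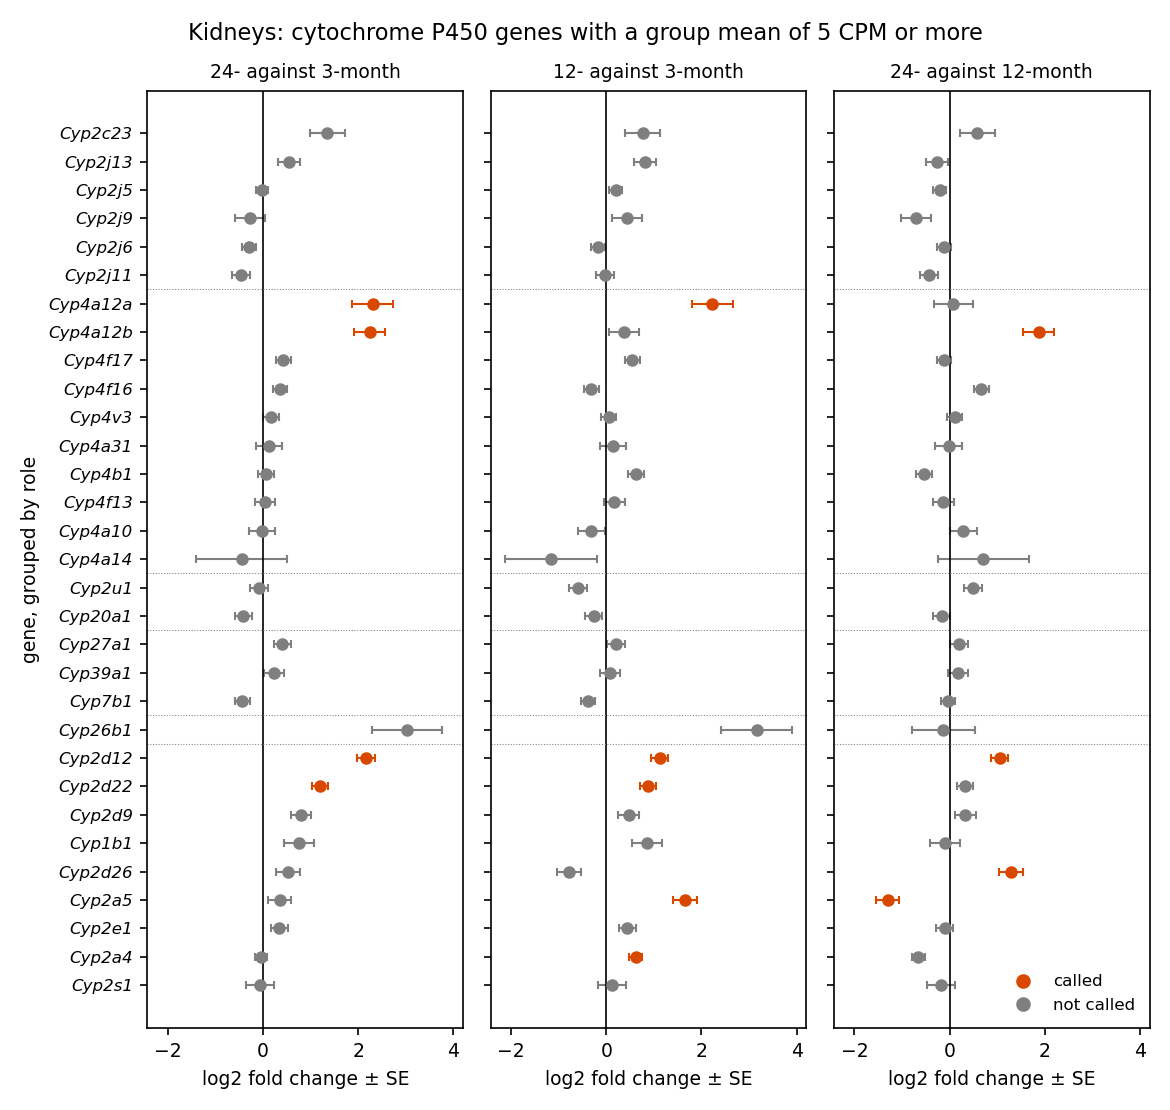
Log2 fold change with its SE in the 3 comparisons of kidney ages for the 31 P450 genes with a mean of 5 CPM or more in any kidney group, with called genes in orange. Most genes lie within 1 log2 unit of 0 in all panels, and Cyp26b1, Cyp4a12a, Cyp4a12b and Cyp2d12 have the largest values at 24 against 3 months.

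Cyp26b1, the retinoic acid hydroxylase up-regulated in senescent PTEC, had 1.1, 0.819 and 2.02 CPM at 3 months, 17.7, 5.02 and 12.5 CPM at 12 months and 21.6, 3.43 and 7.2 CPM at 24 months. Every older kidney was above every 3-month kidney, and the older kidneys differed several-fold from one another. It was not called at 24 against 3 months (log2 fold change 3.03, SE 0.742, adjusted p = 0.0762) or at 12 against 3 months (3.16, SE 0.745, 0.0624) in edgeR's quasi-likelihood test, but was in DESeq2 (adjusted p = 0.000232 and 9.33e-05). Cyp1b1, also up-regulated in senescent PTEC, had 10.2, 18.6 and 14 CPM at 3 months, 19.6, 32.8 and 24.9 CPM at 12 months and 33, 22.9 and 16.3 CPM at 24 months, with overlap between 24 and 3 months and no call (log2 fold change 0.76, adjusted p = 0.251). Cyp1a1 had 1.65, 0.84 and 2.63 CPM, 0.295, 0.806 and 0.502 CPM, and 0.443, 1.03 and 0.568 CPM, lower in all 12-month kidneys than in the 3-month ones and not called (log2 fold change -1.67, adjusted p = 0.144, and 0.0432 in DESeq2). Cyp2r1 was near level, with 1.94, 1.35 and 2.65 CPM, 1.89, 2.01 and 1.6 CPM, and 1.31, 1.55 and 1.75 CPM. Cyp2s1 had 12.8, 17 and 9.04 CPM, 15.4, 9.01 and 17.7 CPM, and 13.9, 9.74 and 13.5 CPM at the 3 ages, and overlapped between them (24 against 3 months, log2 fold change -0.06, adjusted p = 0.909).

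Genes of sterol metabolism and the remaining abundant genes were not called. Cyp7b1 had 329, 382 and 433 CPM at 3 months, 287, 293 and 295 CPM at 12 months and 277, 256 and 316 CPM at 24 months. All older kidneys lay below the 3-month kidneys (24 against 3 months, log2 fold change -0.43, adjusted p = 0.182). Cyp27a1 had 31.8, 39.8 and 26 CPM, 39.9, 33.2 and 40 CPM, and 46.8, 36.8 and 46.6 CPM, with overlap (24 against 3 months, log2 fold change 0.41, adjusted p = 0.279). Cyp2e1 had 1455, 1396 and 1246 CPM, 1962, 1385 and 2193 CPM, and 1679, 1629 and 1876 CPM. The 24-month kidneys were above the 3-month ones, and the difference was not called (log2 fold change 0.34, adjusted p = 0.337). Steroid-synthesis genes were too low to be tested in kidneys, with Cyp17a1, the highest of them per length at 3 months, at 0.0525 to 0.112 CPM there, the largest group mean of the 47 P450 genes tested in neither tissue nor culture being 0.684 CPM.

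The partners of the P450 enzymes were also compared between ages. Their calls stand beside 1.89% of all genes tested being up-regulated and 0.451% down-regulated at 24 against 3 months. These shares were 1.22% and 1.36% at 12 against 3 months, and 0.896% and 0.434% at 24 against 12 months. By edgeR's quasi-likelihood test 0 of 7 genes of electron supply, 0 of 10 PPARα targets, 0 of 4 AhR targets and 0 of 9 epoxide hydrolases and eicosanoid enzymes were called in the 3 comparisons. Over all genes tested, an unadjusted p under 0.05 was reached by 9.97% higher and 8.23% lower at 24 against 3 months, 8.95% and 7.58% at 12 against 3 months, and 8.06% and 7.19% at 24 against 12 months. At an unadjusted p under 0.05, PPARα targets had 3 lower at 24 against 3 months and 5 lower at 12 against 3 months, and DESeq2 called 2 and 3 lower, and at 24 against 12 months 1 was higher at that level and DESeq2 called 0. The epoxide hydrolases and eicosanoid enzymes had 3 higher and 1 lower, 2 higher and 2 lower, and 2 higher and 0 lower by the same measure, and DESeq2 called 2, 1 and 1 higher at 24 against 3, 12 against 3 and 24 against 12 months. Electron supply had 1 lower and AhR targets 1 higher and 1 lower at 24 against 12 months, where DESeq2 called 1 electron supply gene lower and 1 AhR target higher, and AhR targets had 1 lower in each of the other comparisons, called by DESeq2 at 12 against 3 months. Among haem genes, Hmox1, which degrades haem, was lower at 12 months (20.7 ± 2.25 CPM, n = 3) than at 3 months (47.8 ± 0.708 CPM, log2 fold change -1.20, adjusted p = 0.00376) and higher at 24 months (41.5 ± 2.81 CPM) than at 12 (log2 fold change 1.0, adjusted p = 0.0181). Of the 13 regulators, Nr0b2 alone was called, higher at 24 than at 12 months (log2 fold change 1.07, adjusted p = 0.0443). At an unadjusted p under 0.05, 4 regulators were higher at 24 against 3 months and 3 were higher and 1 lower at 12 against 3 months, where DESeq2 called 0, and 2 haem genes were lower in each of these comparisons, where DESeq2 called 0 and 2 lower. Of the 7 clock output factors, which follow the time of day, 2 were higher and 1 was lower at 12 than at 3 months. They were Dbp (log2 fold change 1.96, adjusted p = 0.0336) and Bhlhe41 (1.43, 0.0468), and the lower Nfil3 (-2.81, 0.0455). The part of clock factors in the P450 values was not tested. Among the 5 androgen-responsive genes, the transporter Slco1a1 had 473 ± 58.1 CPM at 3 months, 804 ± 106 CPM at 12 months and 174 ± 20.9 CPM at 24 months (n = 3 each). It was called in all 3 comparisons, up at 12 against 3 months (log2 fold change 0.77, adjusted p = 0.0489) and down at 24 against 3 (-1.44, 0.00398) and 24 against 12 months (-2.21, 0.00391). Odc1 was down-regulated at 24 against 12 months (-1.12, 0.0443). At an unadjusted p under 0.05, 4 of the 5 were lower at 24 against 3 and at 24 against 12 months, where DESeq2 called 4 and 3 lower, and 1 was higher at 12 against 3 months.

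Cell markers in the kidneys were read beside these results, with 1.89% of all genes tested up-regulated and 0.451% down-regulated at 24 against 3 months and 1.22% and 1.36% at 12 against 3 months. Proximal tubule markers summed to 53545 to 54314 CPM at 3 months, 56186 to 59639 CPM at 12 months and 45574 to 50821 CPM at 24 months, none at 0. At 24 against 3 months 3 of 12 were higher, Slc5a2 (log2 fold change 1.88), Slc5a12 (1.56) and Miox (0.74). There an unadjusted p under 0.05 gave 3 of these markers higher and 2 lower, and DESeq2 called 3 of them higher and 1 lower. The sum of the proximal tubule markers was highest at 12 months, as were Cyp2a4, Cyp2a5 and Cyp4b1, and lowest at 24 months. The list holds Kap, which is also one of the 5 androgen-responsive genes. Those 5 summed to 34075 to 43665 CPM at 3 months, 39446 to 44465 CPM at 12 months and 23577 to 29365 CPM at 24 months. The median log2 fold change of the 12 markers was 0.24 at 24 against 3 months and 0.02 at 24 against 12 months. The fall of the sum was thus not that of the typical marker. Leukocyte markers summed to 32.8 to 112, 57.4 to 105 and 65.4 to 107 CPM, with Cd3e (1.63) and Cd79a (2.86) of 7 higher at 24 against 3 months and Cd79a (2.10) at 12 against 3 months, while an unadjusted p under 0.05 gave 4 and 3 of them higher and DESeq2 called 4 and 2. Hepatocyte markers summed to 126 to 137, 129.9 to 145 and 146 to 162 CPM, and Serpina1a (1.57) of 5 tested was higher at 24 against 3 months. In that comparison an unadjusted p under 0.05 gave 2 higher and 2 lower, and DESeq2 called 1 higher and 1 lower. Adrenal markers summed to 2.97 to 5.49, 2.76 to 3.92 and 1.61 to 1.94 CPM, with Nr5a1 at 0 in all 9 kidneys and Akr1b7 (-1.49) lower at 24 against 3 months. The 6 markers of distal tubule and collecting duct summed to 1088 to 1362, 714 to 905 and 968 to 1279 CPM. Of them Aqp2 (-2.18) was lower at 12 against 3 months, where an unadjusted p under 0.05 gave 3 lower and DESeq2 called 2 lower. At 24 against 3 months these measures gave 1 higher and 3 lower, and 1 higher and 1 lower. At 24 against 12 months they gave 2 higher and 1 higher. Of the markers of loop of Henle (4), podocytes (4), endothelium (5), fibroblasts and pericytes (6) and adipocytes (4), 0 were called in edgeR's quasi-likelihood test, 0 to 2 of a list had an unadjusted p under 0.05 in a comparison, and DESeq2 called 1 of the fibroblast list higher at 24 against 3 months and 1 of the endothelium list lower at 24 against 12 months. The part of these cells in the P450 values was not tested.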

How the data were processed

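RNA was sequenced from 8 PTEC cultures and 9 kidneys. The authors prepared stranded poly(A) libraries, aligned paired-end reads to GRCm38 with the nf-core RNA-seq workflow, and deposited raw counts per gene for each library. Which aligner and counter were used, and with which strand setting, is not given in the sources used here. Gene names, types and lengths came from GENCODE mouse release M 21, promoter windows from the RefSeq table for GRCm 38 patch 6 (75 of 97 P450 genes matched, bases past a GENCODE start that falls within the window left out).

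Counts were tested with edgeR 4.0.16 (R 4.3.3) by quasi-likelihood F-tests with robust fitting, TMM scaling, filterByExpr and Benjamini-Hochberg adjustment over all genes tested, PTEC and kidneys in separate fits. A call needed an adjusted p-value under 0.05 and a log2 fold change beyond 0.5 in either direction. CPM used the TMM sizes of each fit, and RPKM used TMM sizes of all 17 libraries and the union of exons. 15 P450 genes had another identifier version in the 3-month than in the older kidney files, none of them called by edgeR in the fit of all kidneys. Alternatives were DESeq2 1.42.0, its size factors, other filters and fold thresholds, the replicate number as a block, the compared ages alone, and leaving out each library. The script was tested on simulated counts.

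The rule for naming P450 genes took all called ones, those with a group mean of at least 5 CPM and the highest gene per length of each role. Named outside this rule were Cyp2d10 and Cyp2d34, for calls in alternative fits, Cyp26c1, beside the other CYP26 genes, and the genes under other observations. The P450 genes, gene lists and motifs were chosen with earlier results of these data known. Replicates differed by more than sampling noise in all 21 pairs (chi-square per gene 17.1 to 342). Same-numbered PTEC deviated together (r = 0.186 to 0.614 over 4 pairs), as did 12- and 24-month kidneys (0.172 to 0.557 over 3 pairs). However, 24-month kidney 1 also deviated with 12-month kidney 3 (0.27), and 24-month kidney 3 with 12-month kidney 1 (0.191). The number was used as a block on this ground, which does not show kidneys 1 and 3 to be pairs. The reported fits have no block, and the blocked value is given where it changes a call. The 3-month kidneys did not pair with older ones (-0.701 to -0.0336). Depth was 26963442 to 66894790 counts a library, which limits the precision of genes near 0. The values of 3 genes of the lists are not reported here.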

Additional observations from a re-analysis of the deposited data

Results flagged for a closer look

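In 49 groups of 4 cultures examined, 3 had a culture set apart from the other 3 by more than Dixon's 95% limit for the gap over the range, and chance gives about 1 in 20 such groups. Cyp1b1 in senescent PTEC had its lowest value, 215 CPM, in culture 3, while the others lay between 519.6 and 553 CPM. Cyp3a13 in non-senescent PTEC had its highest value, 2.66 CPM, in culture 4, with the others between 2.1 and 2.18 CPM. Cyp3a13 in senescent PTEC had its highest value, 1.7 CPM, in culture 3, with the others between 0.547 and 0.691 CPM.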

How the results depend on the processing

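No call changed direction under any alternative. In PTEC, the 9 up- and 6 down-regulated genes numbered 7 to 13 and 4 to 6 under the alternatives, and 11 and 6 with the replicate number as a block. At 24 against 3 months, the 5 up-regulated genes became 3 with the replicate number as a block (without Cyp2c68 and Cyp2d22), 9 in DESeq2 and 1 to 7 when 1 kidney was left out. At 12 against 3 months, the 5 became 2 with the block, 10 in DESeq2, 0 with the compared ages alone, 3 at a log2 fold change above 1 and 0 to 5 when 1 kidney was left out, and the 0 down-regulated became 1 in DESeq2. At 24 against 12 months, the 3 up-regulated became 0 with the block over all 9 kidneys, 5 in DESeq2, 1 with the compared ages alone, 7 with these ages and the block (an alternative added after seeing the data), and 0 when any kidney was left out. The 1 down-regulated became 2 with a filter of at least 1 CPM, 0 with the block over all kidneys, 2 in DESeq2, 3 with these ages and the block, and 0 when any kidney was left out. The causes were not tested, except that leaving out a kidney leaves fewer samples. The sums of near-identical genes were also added after seeing the data. For genes named by the rule, 1573 alternative fits gave the same result, 86 lost a call and 30 gained one. Most of the 1573 were fits of genes called neither there nor in the main fit. These made up 134 of 333 fits in PTEC and 376 of 440 at 24 against 3 months. They were 373 of 439 at 12 against 3 months and 415 of 477 at 24 against 12 months. The 86 lost calls thus stand against the fits of called genes alone. Depth limits genes under about 1 CPM, among them Cyp2c68 at 2 to 4 counts in a 3-month kidney and Cyp1a1 at 2 to 4 counts in a senescent culture.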

Other observations

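Several P450 genes that did not pass the filter on low counts had traces in senescent PTEC, and the 4 given here were chosen after their values were seen. The steroid-synthesis gene Cyp21a1 had 0.0615, 0.23, 0.157 and 0.0369 CPM in non-senescent and between 0.167 and 1.16 CPM in senescent PTEC, with overlap between groups, and 11.22% of its 76-base stretches occur in a pseudogene. Cyp11b1, which makes corticosterone in the adrenal cortex, had 0, 0.0328, 0 and 0.0369 CPM against 0.386, 0.368, 0.108 and 0.587 CPM. Cyp2f2, known from the airway, was at 0 in non-senescent PTEC and had 0.0643, 0.067, 0.324 and 0.138 CPM in senescent PTEC. Cyp3a16 was at 0 in non-senescent PTEC and in all kidneys and had 0.0643, 0.201, 0.135 and 0.104 CPM in senescent PTEC. DESeq2, which was run without this filter, called all 4 higher, with adjusted p = 0.00395, 0.0021, 0.0111 and 0.0141, and edgeR without the filter did so with 0.00561, 0.00109, 0.00679 and 0.00599.

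In kidneys, Cyp2b10, a gene known to answer to phenobarbital, had 0.42, 0.553 and 0.652 CPM at 3 months, 1.44, 1.05 and 2.93 CPM at 12 months and 0.993, 1.11 and 0.891 CPM at 24 months. It was chosen after its values were seen. All older kidneys lay above the 3-month ones, and at 12 against 3 months it was not called by edgeR's quasi-likelihood test (log2 fold change 1.73, adjusted p = 0.0551) but was by DESeq2 (1.72, 0.00355).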
